A study of Mus musculus with 6 samples.

Results

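Mammals carry 6 actin genes, and all 6 were measured here in differentiating mouse muscle cells with and without *Phf2*. The genes were taken by symbol from the deposited matrix of 55401 genes: *Acta1*, *Actc1*, *Acta2*, *Actg2*, *Actb* and *Actg1*. Each symbol matched 1 gene, so 6 of 6 members were found, and all 6 passed the filter on low counts and are among the 17310 genes tested.

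Actin is the protein of the thin filament. *Acta1* encodes the actin of adult skeletal muscle and *Actc1* that of the heart, and developing skeletal muscle uses both. *Acta2* and *Actg2* encode the actins of vascular and enteric smooth muscle. *Actb* and *Actg1* encode the cytoplasmic actins of all cells, which build the cortex and the stress fibers. When myoblasts withdraw from the cell cycle and fuse, sarcomeric actin rises and cytoplasmic actin falls, and *Acta2* is made for a time in early myotubes. Serum response factor (SRF), which binds the CArG box, and its partners of the myocardin family are known to drive actin genes.

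C2C12 is a mouse myoblast line that fuses into multinucleated myotubes in medium with little serum. PHF2 is a histone demethylase acting on lysine 9 of histone 3, and the study asked what it does in myotubes. The 6 poly(A)-selected RNA libraries came from 3 control and 3 *Phf2* KO samples, all 2 d post differentiation in DMEM with 2% horse serum. The labels call the controls wild type. According to the study they were mock cells, transfected with a plasmid for Cas9, ZsGreen and a guide RNA that matches no mouse sequence. The KO cells received 4 such plasmids with *Phf2* guides as a pool. In both groups the green cells were sorted, expanded as a pool without cloning and frozen before use. The 3 samples of a group were wells of 1 experiment, so p-values measure the spread between wells, which may be technical. Each group was 1 sorted pool, so a difference between pools and an effect of *Phf2* cannot be told apart. The study adds that mock cells would carry no DNA breaks, and that an effect of the breaks themselves is not excluded. In bulk RNA, fewer differentiated cells and less RNA per cell cannot be told apart either.

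Total estimated counts were between 56821143 and 58507833 in control libraries and between 52526109 and 67502788 in KO libraries. *Phf2* was 102, 95.5 and 105 CPM (counts scaled to a common library size) in control replicates 1, 2 and 3, and 41.1, 37.6 and 38.6 CPM in KO replicates 1, 2 and 3. Its log2 fold change was -1.37 (adjusted p = 8.32e-09). The KO libraries thus kept *Phf2* RNA at 0.388 times the control level. In the KO myoblasts the study measured a far stronger loss of PHF2 protein, so the RNA level does not give the protein left. Of 17310 genes tested, 1122 (6.48%) passed an adjusted p of 0.05, with 557 (3.22%) higher and 565 (3.26%) lower in KO.

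The 6 coding sequences differ from each other, and how the differences are spread along the length was not examined. The first 45 coding bases of each are shown. They start at the ATG and come from the GENCODE M21 transcripts. Capitals mark bases that differ from *Acta1* when each sequence is aligned without gaps from its stop codon, so in the shorter *Actg2*, *Actb* and *Actg1* the first codon lies opposite a later *Acta1* codon.
Acta1: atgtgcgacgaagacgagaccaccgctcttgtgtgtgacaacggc
Actc1: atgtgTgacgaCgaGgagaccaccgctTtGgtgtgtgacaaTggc
Acta2: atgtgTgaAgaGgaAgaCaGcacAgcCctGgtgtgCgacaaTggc
Actg2: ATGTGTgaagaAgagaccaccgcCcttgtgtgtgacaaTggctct
Actb: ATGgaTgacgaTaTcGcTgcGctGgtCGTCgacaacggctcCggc
Actg1: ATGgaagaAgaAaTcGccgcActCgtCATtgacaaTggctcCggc

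*Actc1* differed from *Acta1* at 6 of these 45 bases, *Acta2* at 11 and *Actg2* at 9. The cytoplasmic genes *Actb* and *Actg1* differed at 15 and 14. The 3 genes *Acta1*, *Actc1* and *Acta2* have 377 codons each, *Actg2* has 376, and *Actb* and *Actg1* have 375. Over the whole coding sequence, identity between a pair of genes was between 81.6% and 88.7%. It was highest for *Actb* and *Actg1*, with 128 differing bases and only 4 codons that change an amino acid. *Acta1* and *Actc1* were 86.2% identical, again with 4 codons that change an amino acid. *Acta1* and *Actb* were 85.0% identical, with 25 such codons.

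**Figure D1:**
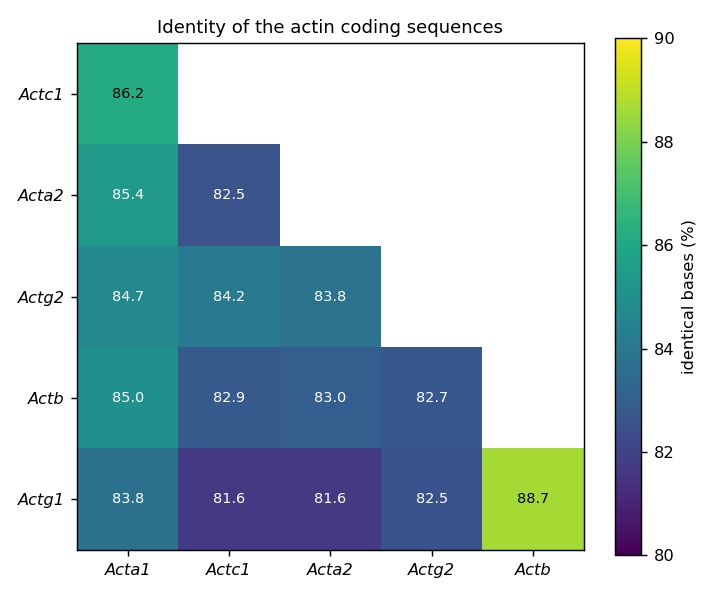
Percent of identical bases between the coding sequences of each pair of actin genes, aligned without gaps from the stop codon (color scale from 80 to 90%). The highest value is that of *Actb* and *Actg1* (88.7%), and the lowest are those of *Actg1* with *Actc1* and with *Acta2* (81.6%).

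These near copies bear on how well reads can be assigned. Among all 75-base windows of the transcript, 99.6% in *Acta1* and 97.4% in *Actb* were found in no other gene's transcripts, and 100% in *Actc1*, *Acta2* and *Actg2*. In *Actg1* that share was 45.5%, and it was 56.5% for windows of 150 bases. The windows of *Actg1* were shared with 10 other genes, mostly processed pseudogenes, which are intron-less copies of its mRNA. None of its windows was shared with another actin gene. The levels of *Actg1* are therefore less certain than those of the other members.

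In control cells *Acta1* had the highest level per length of the 6 genes. In TPM, a level divided by transcript length and scaled within a library, *Acta1* was 3725 ± 370, *Acta2* 3213 ± 40.0, *Actb* 2954 ± 166, *Actg1* 2653 ± 29.4, *Actc1* 1601 ± 187 and *Actg2* 158 ± 2.80 (mean ± SD, n = 3). In the values of reference genes used here, each gene in this order was above the next in every control library. The locus assembled over *Actb* gave another value in control 1, 3371 instead of 2820 TPM. That is above the 3167 TPM of *Acta2* in this library. Ranked by mean TPM among all genes in the control libraries, *Acta1* was at place 23 and *Actc1* at 70, with *Acta2*, *Actb* and *Actg1* at 30, 34 and 38. *Actg2* stood apart at place 954.

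In *Phf2* KO cells the order was different. *Acta2* was the highest at 3639 ± 8.77 TPM, followed by *Actb* at 3519 ± 105, *Actg1* at 2964 ± 36.9, *Acta1* at 2925 ± 193, *Actc1* at 1274 ± 111 and *Actg2* at 198 ± 4.81. *Acta1*, first in the controls, was at place 4 by its mean. *Actg1* and *Acta1* overlapped between KO libraries and did not differ beyond their spread, while every other gene was above the next in each KO library.

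Of the 6 actin genes, 4 passed the test and all 4 were higher in *Phf2* KO cells, beside 3.22% of all genes. They were the smooth muscle and the cytoplasmic genes. The sarcomeric genes had lower means in KO and did not pass. By exactTest as run here, these calls were nearly the opposite. In this run *Acta1* (adjusted p = 0.00472), *Actc1* (0.0237) and *Actg2* passed, while *Acta2* (0.0961), *Actb* (0.0972) and *Actg1* (0.0995) did not. Of all genes, 1129 passed in it. The study names the same test and reports far fewer genes. Its gene list was not reproduced here, so these calls are not those of the study. The groups did not overlap for 5 of 6 genes, beside 25.1% of all genes. All KO libraries lay above all controls in 4 actin genes, beside 12.9% of all genes, and below them in *Acta1*, beside 12.2%.

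*Acta1* (ENSMUSG00000031972, chromosome 8, 123891769 to 123894751, minus strand) makes the main actin of the sarcomere. It was 2724, 2547 and 2202 CPM in control replicates 1, 2 and 3, and 2115, 1824 and 1874 CPM in KO replicates 1, 2 and 3. All KO libraries were below all control libraries, with control 3 the nearest to them. The means were 2491 ± 265 and 1938 ± 156 CPM (SD, n = 3). The fold was 0.778 with a 95% interval from 0.655 to 0.924, and the log2 fold change was -0.36 (SE 0.098, unadjusted p = 0.0127, adjusted p = 0.117, edgeR quasi-likelihood test). In a fit with the replicate block it passed, at an adjusted p of 8.08e-04. Without control 3 the log2 fold change was -0.45 and it passed as well (adjusted p = 0.0198).

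*Actc1* (ENSMUSG00000068614, chromosome 2, 114047282 to 114053548, minus strand) was the lower of the sarcomeric genes. It was 1174, 1166 and 941 CPM in controls 1, 2 and 3, and 956, 789 and 846 CPM in KO 1, 2 and 3. Control 3 lay below KO 1, so the groups overlapped. The log2 fold change was -0.34 (SE 0.12, unadjusted p = 0.0353, adjusted p = 0.215), and the fold of 0.790 had an interval from 0.639 to 0.976. Without control 3 it passed, at a log2 fold change of -0.44 (adjusted p = 0.0201). Within each replicate number *Actc1* was lower in KO in 3 of 3 pairs, by log2 differences of -0.30, -0.56 and -0.15, and *Acta1* likewise, by -0.36, -0.48 and -0.23.

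The sarcomeric genes were also the most variable of the family. The coefficient of variation of CPM in control libraries was 10.7% for *Acta1* and 12.1% for *Actc1*, and between 1.08% and 1.69% for the other 4 genes. In KO libraries it was 8.03% and 9.82%, and between 1.23% and 4.66% for the others. Control 3 had the lowest sarcomeric level of its group, for both genes.

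*Acta2* (ENSMUSG00000035783, chromosome 19, 34241090 to 34255590, minus strand) rose in *Phf2* KO cells. It was 2989.8, 3069 and 3027 CPM in controls 1, 2 and 3, and 3467, 3423 and 3311 CPM in KO 1, 2 and 3. The groups did not overlap. The means were 3029 ± 39.4 and 3400.2 ± 80.3 CPM, a fold of 1.12 with an interval from 1.07 to 1.18 and a log2 fold change of 0.17 (SE 0.031, adjusted p = 0.00525). Without KO 2 it no longer passed (adjusted p = 0.0602).

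*Actg2* (ENSMUSG00000059430, chromosome 6, 83512905 to 83536265, minus strand), the least abundant member, had the largest rise of the family. It was 99.5, 96.5 and 96.8 CPM in controls 1, 2 and 3, and 126, 122 and 115 CPM in KO 1, 2 and 3. The 3 KO libraries were all above the controls, whose own spread was narrow. The means were 97.6 ± 1.65 and 121 ± 5.64 CPM, a fold of 1.24 (interval 1.16 to 1.33) and a log2 fold change of 0.31 (SE 0.046, adjusted p = 0.0012). It passed in all 16 alternatives run for it.

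*Actb* (ENSMUSG00000029580, chromosome 5, 142903115 to 142906754, minus strand) is widely used as a reference gene, and the study's quantitative RT-PCR took it as internal control. It was 2807, 2740.3 and 2717 CPM in controls 1, 2 and 3, and 3166, 3131 and 2996 CPM in KO 1, 2 and 3. Every KO library was above every control library. The means were 2755 ± 46.5 and 3098 ± 89.7 CPM, a fold of 1.12 (interval 1.07 to 1.18) and a log2 fold change of 0.17 (SE 0.033, adjusted p = 0.00671). On the TPM scale the log2 difference was 0.25 and did not pass (limma, adjusted p = 0.0652), with control libraries between 2820.2 and 3139.6 TPM. The lowest of these, control 1, was 3371 TPM in the assembled locus. Without control 2 or KO 2 the rise in counts did not pass either (adjusted p = 0.0657 and 0.0686).

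*Actg1* (ENSMUSG00000062825, chromosome 11, 120345690 to 120348542, minus strand) rose in KO cells too. It was 2202, 2218 and 2249 CPM in controls 1, 2 and 3, and 2493, 2518 and 2457 CPM in KO 1, 2 and 3. The KO libraries lay in a narrow band above the controls. The means were 2223 ± 24.1 and 2489 ± 30.6 CPM, a fold of 1.12 (interval 1.07 to 1.17) and a log2 fold change of 0.16 (SE 0.031, adjusted p = 0.00547). It did not pass without control 2 or without KO 2 (adjusted p = 0.0578 and 0.0647).

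**Figure D2:**
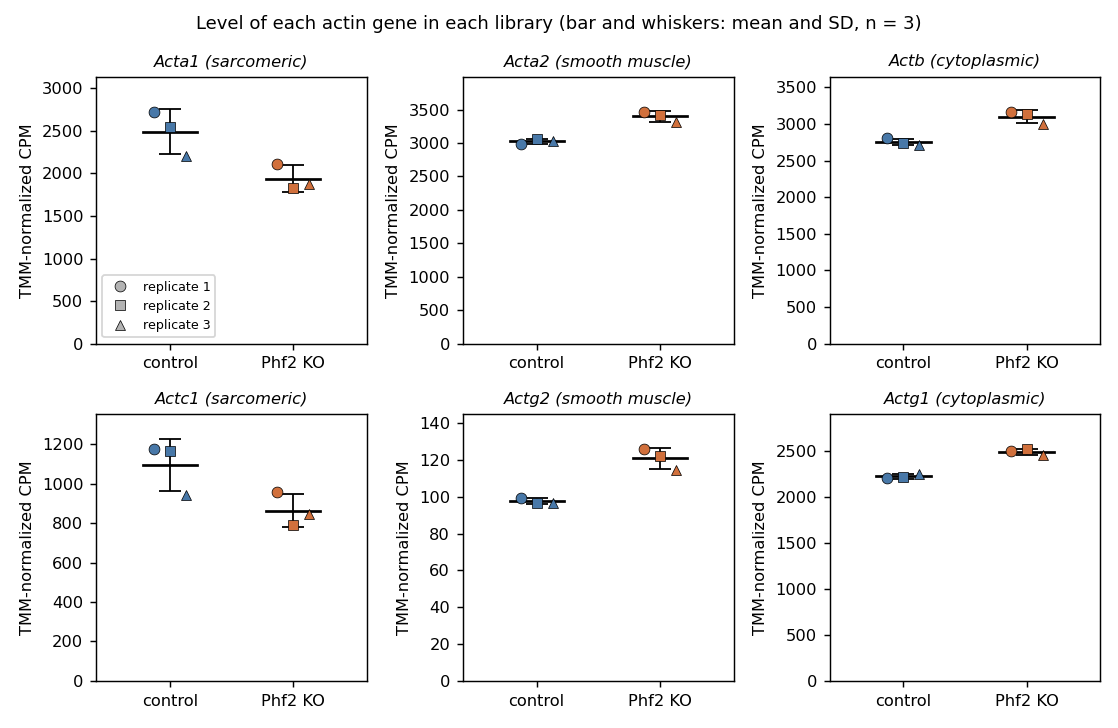
TMM-normalized CPM of each actin gene in the 3 control and 3 *Phf2* KO libraries, on axes that start at 0, with bars at the mean and whiskers of 1 SD (n = 3). *Acta1* is lower in every KO library, *Actc1* overlaps between the groups, and the KO libraries of the other 4 genes all lie above the controls.

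The highest copy of *Actg1* was the processed pseudogene *Gm12715* (ENSMUSG00000059195, chromosome 4, 103563402 to 103564529). Its count was between 9.18% and 10.3% of that of *Actg1*. *Gm12715* was 216, 229 and 219 CPM in controls 1, 2 and 3, and 245, 251 and 226 CPM in KO 1, 2 and 3. KO 3 lay below control 2, and the log2 fold change of 0.12 did not pass (SE 0.049, adjusted p = 0.188). Where the sequences are identical, reads of the copy and of *Actg1* cannot be told apart. A second copy, *Gm8399*, was far lower, at 7.35 ± 0.552 CPM in control and 7.49 ± 0.496 CPM in KO (log2 fold change 0.03, adjusted p = 0.945). When both copies were added to *Actg1*, an alternative chosen after seeing the data, its log2 fold change was 0.16 (adjusted p = 0.00667).

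The shares of the family were computed next, because they do not depend on how libraries are scaled to each other. Of the summed TPM of the 6 genes, the sarcomeric pair took 39.6%, 38.1% and 33.8% in controls 1, 2 and 3 and 30.3%, 27.3% and 29.1% in KO 1, 2 and 3. The cytoplasmic pair took 37.5%, 38.3% and 41.8% in controls and 43.8%, 45.9% and 44.3% in KO. The smooth muscle pair took 22.8%, 23.5% and 24.4% in controls and 25.8%, 26.9% and 26.6% in KO. For each pair the groups were apart, with the sarcomeric share lower and the others higher in all KO libraries.

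The share of *Acta1* was 26.0 ± 1.99% in control and 20.1 ± 0.941% in KO, and that of *Actc1* was 11.2 ± 1.06% and 8.77 ± 0.606%. *Acta2* had 22.5 ± 0.751% and 25.1 ± 0.518%, and *Actg2* had 1.11 ± 0.027% and 1.36 ± 0.025%. *Actb* had 20.7 ± 1.66% and 24.2 ± 0.654%, and *Actg1* had 18.6 ± 0.615% and 20.4 ± 0.667% (SD, n = 3). None of the 6 shares overlapped between the groups. Each gave p = 0.1 in a two-sided exact permutation test, the smallest that 3 libraries against 3 allow, and 0.143 after Benjamini-Hochberg adjustment over the 10 measures tested in this way. Shares add up to a whole, so they are not independent of each other.

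The ratio of sarcomeric to cytoplasmic actin, (*Acta1* + *Actc1*) over (*Actb* + *Actg1*) in TPM, was 1.06, 0.994 and 0.809 in controls 1, 2 and 3 and 0.692, 0.595 and 0.657 in KO 1, 2 and 3. Every KO library was below every control library. The means were 0.953 ± 0.128 and 0.648 ± 0.049, so that the KO ratio was 0.68 times that of control (exact permutation p = 0.1, adjusted 0.143). It was lower in KO in 3 of 3 replicate pairs. The value of control 1 rests on the lower of its *Actb* values. The ratio was lower in KO in all 11 alternatives run for it, that with the TPM of assembled loci included. On counts without length correction the ratio was 0.720 ± 0.077 and 0.501 ± 0.040, or 0.696 times. The ratio of sarcomeric to smooth muscle actin was 1.58 ± 0.177 and 1.09 ± 0.079. The ratio of smooth muscle to cytoplasmic actin was 0.602 ± 0.017 and 0.592 ± 0.007, with overlapping groups.

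**Figure D3:**
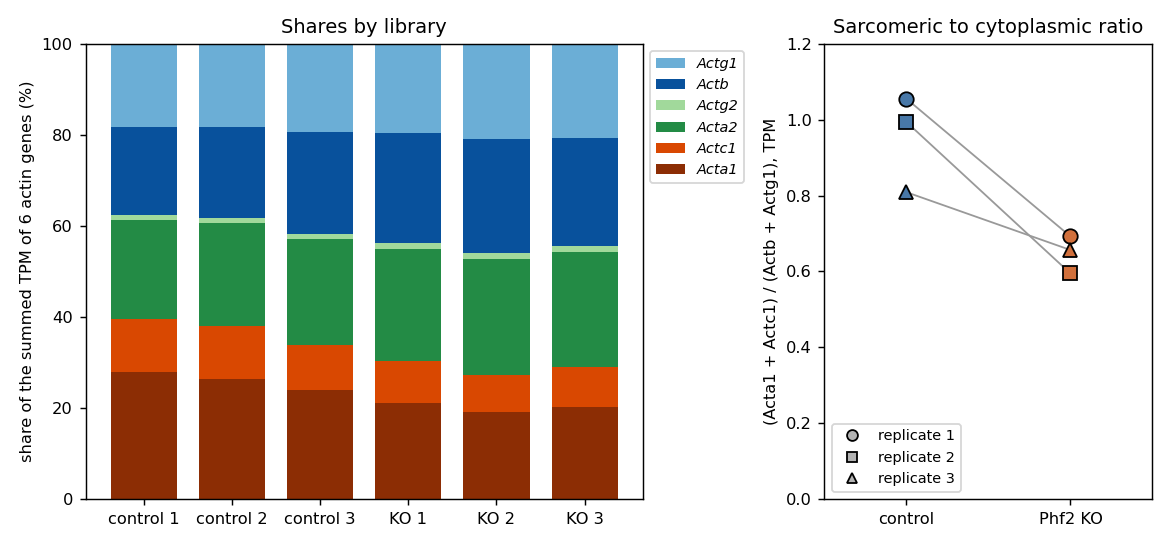
Left: share of each actin gene in the summed TPM of the 6 genes, in percent, for each library. Right: ratio of sarcomeric to cytoplasmic actin in TPM, with lines joining libraries of the same replicate number, between 0.809 and 1.06 in control and between 0.595 and 0.692 in KO.

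The proportions of genes within a class were followed next. *Acta1* made up 70.0 ± 0.789% of sarcomeric actin in control and 69.7 ± 0.519% in KO (exact permutation p = 0.8, adjusted 0.8). *Actb* made up 52.7 ± 1.19% of cytoplasmic actin in TPM in control and 54.3 ± 0.894% in KO (exact permutation p = 0.2, adjusted 0.25), and 55.3 ± 0.667% and 55.4 ± 0.50% in counts. The groups overlapped for both. In counts, the ratio of *Actg1* to *Actb* was 0.807 ± 0.022 and 0.804 ± 0.016, and that of *Acta2* to *Actb* was 1.10 ± 0.030 and 1.10 ± 0.006.

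The summed level of the family overlapped between the groups. The summed TPM was 14303 ± 336 in control and 14518 ± 301 in KO (exact permutation p = 0.6, adjusted 0.667). The order was the opposite for CPM divided by transcript length, at 6600.2 per kb in control and 6577 in KO.

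Over the 6 libraries, *Acta1* and *Actc1* varied together, with a Pearson r of log2 CPM of 0.983. *Actb* and *Actg2* had an r of 0.996, and *Acta2* and *Actg1* one of 0.979. These values describe 6 libraries that share the difference between the groups. Among the 10923 genes whose mean reached 5 CPM, the genes with the pattern most like *Acta1* were *Vamp5*, *Psmb3* and *Edf1* (r from 0.996 to 0.998), and those most like *Actc1* were *Actn3*, *Tmem182* and *Hspb2* (r from 0.994 to 0.997). *Col1a2*, *Gm20075* and *Gm48529* were nearest to *Acta2*, and *Efnb1*, *Copg2* and *Cep57l1* to *Actg2*. *Efnb1*, *Actg2* and *Stim1* were nearest to *Actb*, and *Smap2*, *Wdr1* and *Ric1* to *Actg1* (r of at least 0.994 for all 12). Between 4 and 17 genes per member had an r above 0.99.

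Thin filament partners of sarcomeric actin were examined for comparison: troponins, tropomyosins, nebulin and nebulette, tropomodulins, leiomodins, α-actinins, the capping protein CapZ, and the Xin and nebulin-related anchoring proteins. Of 23 such genes, 12 (52.2%) fell in KO, beside 3.26% of all genes, and 0 rose, with a median log2 fold change of -0.35 beside -0.001 over all genes. The 12 included *Actn2* (-1.41), which crosslinks filaments at the Z-disc, *Neb* (-0.63), the protein along the thin filament, *Tnnc2* (-0.61), the calcium-binding troponin of fast fibers, *Lmod3* (-0.59), a filament nucleator, and *Tnni1* (-0.54), the inhibitory troponin of slow fibers. By the same test 1 of the partners was higher and 16 were lower at an unadjusted p under 0.05, and 0 rose by exactTest or DESeq2. The median of the list stood beside -0.36 for *Acta1* and -0.34 for *Actc1*, which did not pass. Without KO 2 or KO 3 the count of partners that fell was 6.

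Proteins that set how much actin is polymerized were counted next. Of 37 genes of monomer binding, nucleation, capping and severing, 5 (13.5%) rose, beside 3.22% of all genes, and 2 (5.41%) fell, beside 3.26%, with a median of 0.05. Without control 1, control 2, KO 2 or KO 3 the count that fell was 1. Among those that rose were *Evl* (0.31), which promotes filament elongation, *Wdr1* (0.27), a partner of cofilin, and *Fhod1* (0.27), a formin. The others were *Dstn* (0.26), which severs filaments, and *Tmsb4x* (0.24), which holds monomers. *Cobl* (-0.63), a nucleator, and *Cap2* (-0.55), which recycles monomers, fell. For the 18 genes of actin folding and maturation, such as the subunits of the CCT chaperonin, 0 passed in either direction by the quasi-likelihood test (1 at an unadjusted p under 0.05) and by every alternative, exactTest and DESeq2 included, and their log2 fold changes were between -0.13 and 0.08.

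Of 16 genes in the files that regulate SRF or act with it, 15 were tested. Of these 4 (26.7%) rose, beside 3.22% of all genes, and 3 (20.0%) fell, beside 3.26%. The count that rose was 1 without control 2 or KO 2 and 2 without KO 1 or KO 3, and the count that fell was 1 without KO 3. *Csrp2* (0.51), *Fhl2* (0.23) and *Csrp1* (0.21), LIM proteins of the actin cytoskeleton and of SRF complexes, rose, and *Elk3* (0.16), an SRF partner, rose too. Among those that fell were *Ablim3* (-1.03) and *Abra* (-0.80), actin-binding proteins that raise SRF activity in muscle. *Srf* itself was 71.1 ± 2.52 CPM in control and 75.6 ± 5.81 CPM in KO (log2 fold change 0.09, adjusted p = 0.477), and its coactivator *Mrtfa* was 116 ± 10.2 and 117 ± 2.09 CPM.

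**Figure D4:**
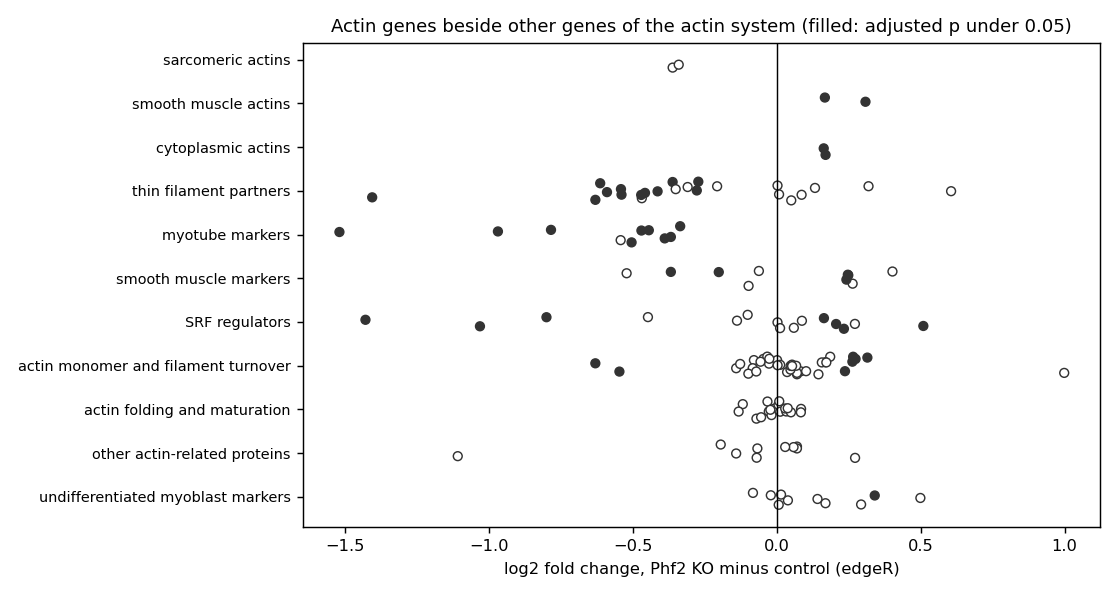
Log2 fold change (KO minus control, edgeR) of the actin genes by class and of the genes of each list, with filled points for an adjusted p under 0.05 and a vertical scatter that has no meaning. The sarcomeric actins lie within the range of the thin filament partners (-1.41 to 0.61), and the smooth muscle and cytoplasmic actins lie between 0.16 and 0.31.

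Markers of cell states were followed beside the actins. Of 10 markers of differentiated myotubes, 9 fell, beside 3.26% of all genes, and *Ttn* did not pass (log2 fold change -0.54, adjusted p = 0.111). Their summed level was between 6515 and 7612 CPM in control and between 5006 and 5435 CPM in KO, and it moved with that of the sarcomeric actins. Among 10 markers of undifferentiated myoblasts, 1 rose, beside 3.22% of all genes. This was *Id2* (0.34), and the count was 0 without control 1 or without any 1 of the KO libraries. Their summed level was between 348 and 386 CPM in control and between 422 and 428 CPM in KO, higher as the cytoplasmic actins were. *Id3*, which did not pass (adjusted p = 0.0661), made up much of this step, at 96.8 ± 13.8 CPM in control and 137 ± 10.4 CPM in KO, and the log2 fold changes of the cell cycle members *Cdk1*, *Top2a*, *Ccna2*, *Ccnb1* and *Mki67* were between -0.08 and 0.04. The part of either in the actin differences was not tested.

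*Acta2* and *Actg2* name smooth muscle, and its other markers gave a mixed picture. *Myh11*, the defining myosin of smooth muscle, was near 0, at 0.259 ± 0.151 CPM in control and 0.244 ± 0.219 CPM in KO, and *Cnn1* was at 5.52 ± 0.682 and 3.85 ± 0.271 CPM. Of 10 smooth muscle markers, 3 rose, beside 3.22% of all genes, and 2 fell, beside 3.26%. With the replicate block 5 rose and 1 fell, and the count that fell was also 1 by exactTest and without any 1 library other than control 3. *Tagln* (0.25), *Cald1* (0.25) and *Myl9* (0.24), which are also part of the stress fibers of other cells, rose with *Acta2*. *Des* (-0.37) and *Synpo2* (-0.20), which skeletal muscle also makes, fell. In all, 5 of the 10 had a higher and 5 a lower log2 fold change. Among those that did not pass, *Mylk* (0.40) and *Lmod1* (0.26) were higher, and *Cnn1* (-0.52), *Smtn* (-0.10) and *Myh11* (-0.06) lower. The summed level of the list was between 2772 and 2893 CPM in control and between 2802 and 2839 CPM in KO. This sum includes *Des*, which is also counted among the myotube markers. *Des* alone went from 1088 ± 66.7 CPM in control to 843 ± 30.3 CPM in KO, so the sum does not describe the other members.

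*Actc1* names the heart, and 3 of 10 cardiac markers (*Tbx5*, *Myl7* and *Hand2*) were at 0 counts in all 6 libraries. Another 3 were too low to be tested. *Myh6* fell (from 22.9 ± 3.88 to 11.4 ± 0.498 CPM), and *Gata4* was at 16.3 ± 1.03 and 15.1 ± 0.182 CPM. The summed level of the 4 tested was between 37.4 and 44.7 CPM in control and between 28.4 and 28.8 CPM in KO, far below the 1094 ± 132 and 864 ± 84.8 CPM of *Actc1*.

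More distant relatives of actin gave no call. Of 19 actin-related genes, such as *Actr2* and *Actr3* of the Arp2/3 complex, 10 were expressed highly enough to be tested. By the quasi-likelihood test, exactTest and DESeq2 0 passed (1 at an unadjusted p under 0.05 in the first), with a median log2 fold change of -0.02. *Actbl2*, a close relative of *Actb*, had at most 3 counts in any library.

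The promoters were compared for the site of SRF, since the members fall into classes that differ in direction. RefSeq starts (GRCm38.p6) were matched for 4 of the 6 genes, *Acta1*, *Actc1*, *Acta2* and *Actg1*. The 120 bases before each start are shown, 5′ to 3′ on the minus strand of the genome, with the CArG box in capitals (CC, 6 bases of A or T, GG).
Acta1, chr8:123894776-123894895: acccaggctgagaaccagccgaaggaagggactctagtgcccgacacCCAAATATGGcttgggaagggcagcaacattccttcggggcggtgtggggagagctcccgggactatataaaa
Actc1, chr2:114052876-114052995: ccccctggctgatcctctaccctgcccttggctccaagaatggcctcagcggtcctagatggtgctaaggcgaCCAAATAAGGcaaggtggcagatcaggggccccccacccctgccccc
Acta2, chr19:34255374-34255493: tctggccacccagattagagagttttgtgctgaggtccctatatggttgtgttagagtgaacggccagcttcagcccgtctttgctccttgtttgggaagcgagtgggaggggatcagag
Actg1, chr11:120348496-120348615: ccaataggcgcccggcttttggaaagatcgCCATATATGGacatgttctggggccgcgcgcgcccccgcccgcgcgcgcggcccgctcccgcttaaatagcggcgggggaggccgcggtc

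A CArG box began 73 bases before the RefSeq start of *Acta1*, 47 before that of *Actc1* and 90 before that of *Actg1*. Searched over 250 bases before and 50 after the start, each of these promoters held 1 exact match to the pattern and that of *Acta2* held 0. Matches with a differing base were not sought, so the count of 0 says only that no exact match lies in this window. Among 32851 promoters of the same length, 1.63% held an exact match. It is palindromic, so both strands give the same match. The box was thus present in promoters of genes with lower means (*Acta1*, *Actc1*) and of a gene that rose (*Actg1*). The E-box of myogenic factors (CANNTG, both strands) was present in all 4 windows, and in 72.3% of all promoters. The MCAT element (CATTCC, both strands) was found in *Acta1* and *Acta2*, and in 14.7% of all promoters. No E-box or MCAT element overlapped a CArG box in these windows. The sequence TATAAA began 7 bases before the RefSeq start in *Acta1* and at base 34 after it in *Actc1*. All distances hold for the RefSeq starts, and whether these cells use them was not tested.

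**Figure D5:**
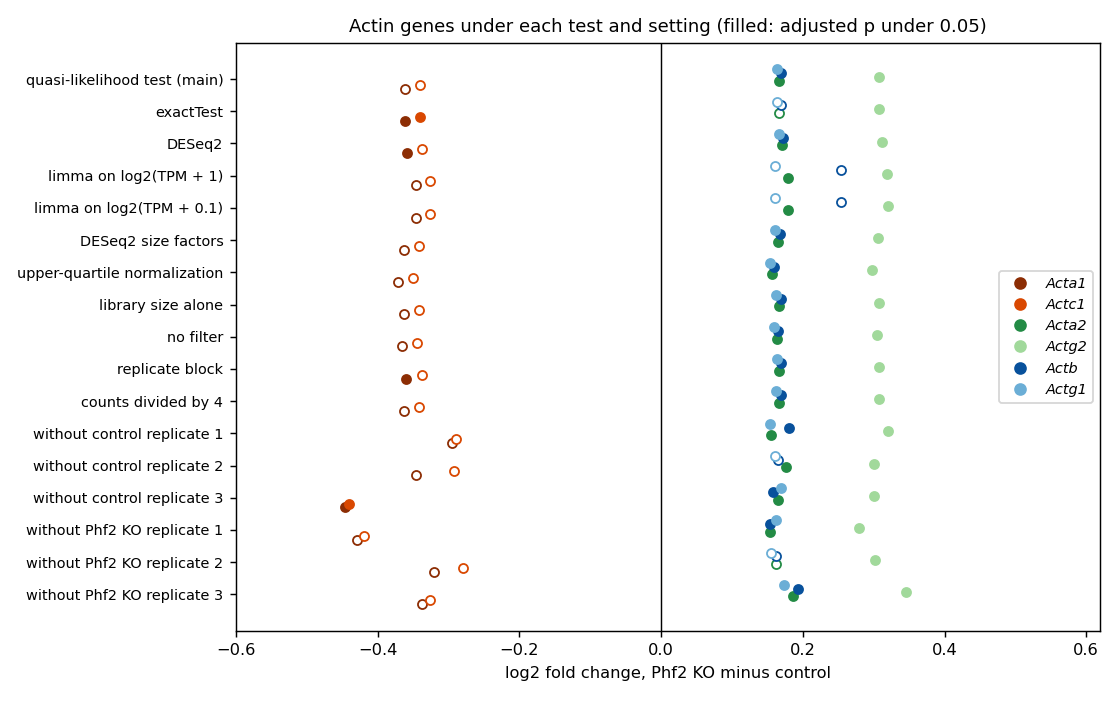
Log2 fold change (KO minus control) of each actin gene under the quasi-likelihood test and 16 alternatives, with filled points for an adjusted p under 0.05. *Acta1* and *Actc1* lie between -0.45 and -0.28 and the other 4 genes between 0.15 and 0.35 throughout, and only *Actg2* passes in each.

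The direction of each actin gene was the same under every test, scaling and left-out library run. Scaling moved the median log2 fold change of all genes by at most 0.010. Which actin genes passed other than *Actg2* depended on the test.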

How the data were processed

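RNA was sequenced by the authors as 150 bp paired-end reads, aligned to mm10 with HISAT2 and quantified with StringTie; versions and annotation are not given in the sources used here. The deposited matrix holds estimated counts per gene, whole numbers without scaling by library size. A count stood for about 75 covered bases (median between 74.98 and 74.99 for genes with 1 transcript and at least 500 counts), so counts are not tallies of reads or independent molecules. The deposited library tables hold TPM, a signal scaled by the authors within each library. They list reference genes and assembled loci side by side, and rows of reference genes were used. Coverage, the authors' mean depth per base and the other deposited value, served only to work out the count unit. Coordinates and transcripts are from GENCODE M21 (GRCm38, the assembly of mm10), and promoters from RefSeq (GRCm38.p6).

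Counts were tested in R 4.3.3 with edgeR 4.0.16 (filterByExpr with a minimum count of 10, TMM, robust quasi-likelihood test), fitted on all 17310 genes, with Benjamini-Hochberg adjustment over all of them. The kind of test that the study names, exactTest, was an alternative, because the quasi-likelihood test takes into account the uncertainty of dispersion. The study's own run of it was not reproduced. CPM are TMM-normalized. Fold intervals (95%) use the t quantile of the fit. For shares and ratios an exact permutation test over libraries was run, two-sided. Named genes were *Phf2*, the 6 actins, up to 5 members past the threshold with the largest change of each list (any member of a cell type marker list), the 3 genes most like each actin, and pseudogenes of at least 1 CPM. *Srf*, *Mrtfa*, *Actr2*, *Actr3* and *Actbl2* were named outside this rule, after their values were seen. The members and lists were chosen with earlier results of these data known. The procedure was tested on simulated counts.

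Alternatives were exactTest, DESeq2 1.42.0, limma 3.58.1 on log2(TPM + 1) and log2(TPM + 0.1), other scalings, no filter, the replicate block and leaving out each library. Counts divided by 4 were tested as well, and shares and ratios were also computed from the TPM of assembled loci. Neither of these alternatives was planned at the start. Libraries with the same replicate number, taken from the labels, had deviations from the group mean that correlated over 10923 genes. The correlations were 0.235, 0.258 and 0.168 for the same number, and between -0.241 and -0.002 for different numbers. Deviations in a group sum to 0 for each gene, so the negative values follow from the positive ones and add nothing separate. The main fit used no block. Python 3.11.15 and scipy 1.17.1 were used for the rest.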

Additional observations from a re-analysis of the deposited data

How the results depend on the processing

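Directions of the 6 actin genes were the same under every alternative run. By exactTest the log2 fold changes of *Acta1* (-0.36, adjusted p = 0.00472) and *Actc1* (-0.34, 0.0237) passed, and those of *Acta2* (0.17, 0.0961), *Actb* (0.17, 0.0972) and *Actg1* (0.16, 0.0995) did not. By DESeq2 *Acta1* passed (-0.36, adjusted p = 0.0167). By limma on log2(TPM + 1), 158 of all genes passed, and *Actb* (0.25, adjusted p = 0.0652) and *Actg1* (0.16, 0.0593) did not. With a pseudocount of 0.1 instead, 178 genes passed, with *Actb* at 0.25 (0.0606) and *Actg1* at 0.16 (0.0564). Between 468 and 1039 genes passed without 1 library, the fewest without control 2 (468), KO 2 (577) and KO 3 (613). In these runs with 1 library left out, the log2 fold change of *Acta1* was between -0.45 and -0.30, of *Actc1* between -0.44 and -0.28, of *Acta2* between 0.15 and 0.19, of *Actg2* between 0.28 and 0.35, of *Actb* between 0.15 and 0.19 and of *Actg1* between 0.15 and 0.17. Of the 23 thin filament partners, 2 and 3 fell by limma on TPM with pseudocounts of 1 and 0.1. The cause of these losses and gains was not tested.

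With the replicate block, *Acta1* passed (-0.36, adjusted p = 8.08e-04), *Actc1* did not (adjusted p = 0.0808), and no other actin gene changed its call. In 3 pairs the exact sign-flip test of the ratio of sarcomeric to cytoplasmic actin gave p = 0.25, the smallest it can give. The share of *Acta1* in sarcomeric actin differed by -0.73 to 0.029 percentage points without 1 library, with the sign turned without control 3 (0.029). The summed level of the 6 genes was 23.6 CPM per kb lower in KO (difference -23.6). With 3 libraries a group, a difference of single values cannot reach an exact p under 0.1, and wells of 1 experiment do not show the spread between experiments. Counts of *Actg1* are limited by its copies.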
